A study of Mus musculus with 45 samples.

Results

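The collagen genes of the mouse were followed in 45 RNA-seq libraries of the small intestine. The members were taken by symbol alone, as every gene whose name is Col, a type number, the letter a and a chain number. This gave 44 of the 52636 genes, of which 11 code for fibrillar chains (types 1, 2, 3, 5, 11, 24 and 27), 8 for chains of basement membranes (types 4, 15 and 18) and 25 for the other types. The symbol is the whole rule, with no threshold on a measured value. In the sorted cells 43 of the 44 reached 1 CPM (CPM is the count of a gene scaled to the reads of its library) in 2 or more libraries, and the gene left out peaked at 1.65 CPM. In organoids 15 of the 44 did, with 2 fibrillar, 6 basement membrane and 7 other chains, and the other 29 peaked at 0.7 CPM or below. No member shared over 10% of its exon bases with another gene.

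Collagens are triple helices of chains that carry glycine at each triplet. Fibrillar types build the load-bearing fibres of connective tissue and are made mainly by fibroblasts and smooth muscle. Type IV collagen forms the sheet under every epithelium, and types XV and XVIII are basement membrane collagens that carry sugar chains. In the gut, mesenchyme and endothelium are the main known sources, while epithelial cells also make some basement membrane and transmembrane chains.

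The sorted cells were eGFP+ve cells of Lgr5-DTReGFP mice, in which a cassette for the diphtheria toxin receptor and eGFP sits in Lgr5 and disrupts it. Heterozygotes (HE) therefore carried a single working Lgr5 allele, homozygotes (KO) none, and no wild-type cells were sorted. At E16.5, HE and KO cells came from whole small intestine of litter 85 (7 HE and 2 KO embryos pooled) and litter 97 (8 HE and 6 KO embryos pooled). HE cells also came from 2 single E18.5 embryos and from the duodenum and ileum of the same 2 adult mice of 2 months. A further 5 adult ileum libraries held eGFP+ve/RFP+ve cells of Lgr5-Cre/+ (HE, 2 mice) and Lgr5-Cre/flox (cKO, 3 mice) animals, all taken 48 hours after 2 mg of tamoxifen. Organoids, epithelial cultures grown in a basement membrane gel, came from E17.5 embryos of the Lgr5-DTReGFP line, with 3 WT and 2 KO cultures, each from 1 embryo and each given Rspo1, Rspo2 and Rspo3 at 5 and 100 ng/ml. Rspondins are secreted ligands of Lgr receptors that raise Wnt signalling. With 2 or 3 samples per group, p-values measure the spread between these pools, mice or cultures.

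Reads counted on genes, as recovered from the spacing of the CPM values, came to 1275949 to 9055129 in 14 sorted libraries and to 18127669 to 33105796 in the organoid libraries. The depth of the last cKO library was less certain, since 89.7% of its low values came out as whole reads, against 98.66% or more in the others. Lgr5 was at 104.25 and 125.1 CPM in HE and at 64.75 and 51.65 CPM in KO at E16.5, where reads of the disrupted locus are still counted. In the adult Cre mice it was 52.8 and 87.55 CPM in HE and 89.15, 109.35 and 90.65 CPM in cKO, so all 3 cKO libraries lay above both HE libraries, against the direction of a loss of Lgr5. The count covers reads of the disrupted gene too and so does not check the genotype. Among the organoids, the library labelled KO culture 2 with Rspo2 at 5 ng/ml went against its dose label. Lgr5 (90.45 against 75.0 CPM), Olfm4 (1200.95 against 833.9), Axin2 (433.4 against 378.5) and Ascl2 (36.25 against 21.35), genes that rise with Wnt signalling or mark stem cells, were all higher in it than in the library of that culture labelled 100 ng/ml, unlike in the other 14 pairs of doses. Whether the label is right was not tested, and the main results that rest on it are given with and without this culture. The 8 epithelial markers were above 0 in every library, with sums of 2936.95 to 7556.9 CPM. The sorted E16.5 libraries also held mesenchymal, endothelial and erythroid transcripts, which are given beside the results they move with. In bulk RNA, fewer cells of a type and less RNA per cell cannot be told apart.

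Upstream sequences are shown for the 4 members on which the results turn most: Col3a1, the main chain of reticular fibres, Col15a1, Col27a1 and Col11a2. The fifth line shows the 22 bases over which the first exons of Col4a2 and Col4a1 overlap head to head, since this pair moved together in organoids. The sequences are those of RefSeq on GRCm38.p6, read 5′ to 3′ and ending just before the start site of the RefSeq promoter. For Col15a1, Col27a1 and Col11a2 this site differs from the gene start of GENCODE (47208161, 63214004 and 34039437), and the Col27a1 window lies inside the GENCODE gene. Capitals mark a match to TATAAA (the TATA box) or, in Col15a1, to TCAAAG, the reverse of CTTTGA (the core bound by TCF factors).
Col3a1, chr1:45311388-45311537, plus strand: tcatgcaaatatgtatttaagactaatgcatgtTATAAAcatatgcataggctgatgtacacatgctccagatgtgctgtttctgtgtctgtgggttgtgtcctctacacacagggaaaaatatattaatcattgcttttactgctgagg
Col15a1, chr4:47207862-47208011, plus strand: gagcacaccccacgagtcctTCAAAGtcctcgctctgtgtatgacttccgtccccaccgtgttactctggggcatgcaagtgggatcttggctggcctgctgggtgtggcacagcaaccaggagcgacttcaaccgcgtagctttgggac
Col27a1, chr4:63215262-63215411, plus strand: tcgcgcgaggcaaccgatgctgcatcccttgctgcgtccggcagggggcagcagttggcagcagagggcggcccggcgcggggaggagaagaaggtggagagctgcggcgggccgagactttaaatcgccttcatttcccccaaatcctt
Col11a2, chr17:34038988-34039137, plus strand: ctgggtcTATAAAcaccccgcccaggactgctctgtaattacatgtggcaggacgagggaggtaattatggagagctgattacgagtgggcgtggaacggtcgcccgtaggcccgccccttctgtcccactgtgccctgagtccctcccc
Col4a2 and Col4a1, chr8:11312805-11312826, plus strand (Col4a2 sense): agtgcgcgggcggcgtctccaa
The TATAAA letters lay 117 bases before the RefSeq start of Col3a1 and 143 before that of Col11a2. The TCAAAG letters lay 130 before that of Col15a1, and the Col27a1 window held none of the motifs searched. RefSeq gave promoters for 35 of the 44 members, 38 windows of 250 bases in all. Searched on both strands, TATAAA was in 13.2% of them against 12.4% of all 32851 promoters, CCAAT in 34.2% against 33.8%, and CTTTGA in 23.7% against 13.8%. The motifs do not overlap one another in their letters, and a match is a description of the sequence only.

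At E16.5 the collagens were led by fibrillar and type VI chains. In HE pools the summed collagen level was 3092.75 CPM in litter 85 and 1242.5 CPM in litter 97, of which the fibrillar chains made 55.0 to 56.4%. Per kilobase of exon, Col3a1 had the highest mean level (49.91 CPM per kb), followed by Col1a1 (44.9), the leading chain of type I collagen, and Col6a1 (30.65), a chain of the beaded filaments that link cells to fibres. In KO pools the sum was 341.35 CPM in litter 85 and 860.55 CPM in litter 97, below both HE pools, with 52.7 to 52.9% from fibrillar chains. The class shares thus differed by a few percentage points while the level differed by more.

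At E16.5, 2 of the 29 members tested fell in KO relative to HE and none rose, against 0.527% of all 17276 genes called in either direction, 0.440% lower and 0.0868% higher. The calls were made with limma at a false discovery rate of 0.1 and a fold of 1.5, and log2 fold changes are on the log2(CPM + 1) scale. For litters 85 and 97 in turn, Col3a1 was at 661.5 and 318.3 CPM in HE and at 66.3 and 171.15 CPM in KO. Both KO values lay under both HE values, with a log2 fold change of -2.10 (SE 0.40, limma adjusted p = 0.0825). Col6a3, a long chain of type VI collagen, was at 175.6 and 79.7 CPM in HE and at 19.55 and 38.55 CPM in KO, again without overlap (log2 fold change -2.07, SE 0.36, limma adjusted p = 0.0701). The litter 85 KO pool, made from 2 embryos, held the lowest value of both genes.

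The type I chains had changes of the same size that did not pass the test. Col1a1 was at 435.0 and 154.4 CPM in HE and at 34.85 and 113.95 CPM in KO (log2 fold change -2.02, limma adjusted p = 0.147). Col1a2, its partner chain, was at 330.75 and 116.05 CPM in HE and at 25.7 and 73.85 CPM in KO (log2 fold change -2.14, limma adjusted p = 0.117). For both, KO lay under HE without overlap, but the HE pools themselves differed by more than the HE and KO pools of litter 97 did. Col4a1, the main chain of the epithelial basement membrane, was at 146.6 and 64.6 CPM in HE and at 14.95 and 53.6 CPM in KO (log2 fold change -1.74, limma adjusted p = 0.182). Col27a1, a fibrillar chain better known from cartilage, was at 37.65 and 28.25 CPM in HE and at 34.5 and 33.35 CPM in KO, so the groups overlapped (log2 fold change 0.06, limma adjusted p = 0.938).

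Over the members tested, 27 of 29 had a negative log2 fold change and the median was -1.37, against 0.08 over all genes. In 21 the groups did not overlap and KO was lower (18.52% of all genes), and in 1, Col11a2 (0 and 0.55 CPM in HE, 1.55 and 1.6 CPM in KO), KO was higher without overlap (27.4% of all genes) and did not pass the test (limma adjusted p = 0.406). At an unadjusted p under 0.05 the members counted 17 and all genes 2354. By class, 1 of 9 fibrillar, 0 of 6 basement membrane and 1 of 14 other chains fell, with 6, 2 and 9 at an unadjusted p under 0.05. The litters differed in size: within litter 85, 28 of the 29 were lower in KO with a median of -2.59, and within litter 97, 21 of 29 with a median of -0.27, where 44.22% and 44.61% of all genes were lower.

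**Figure D1:**
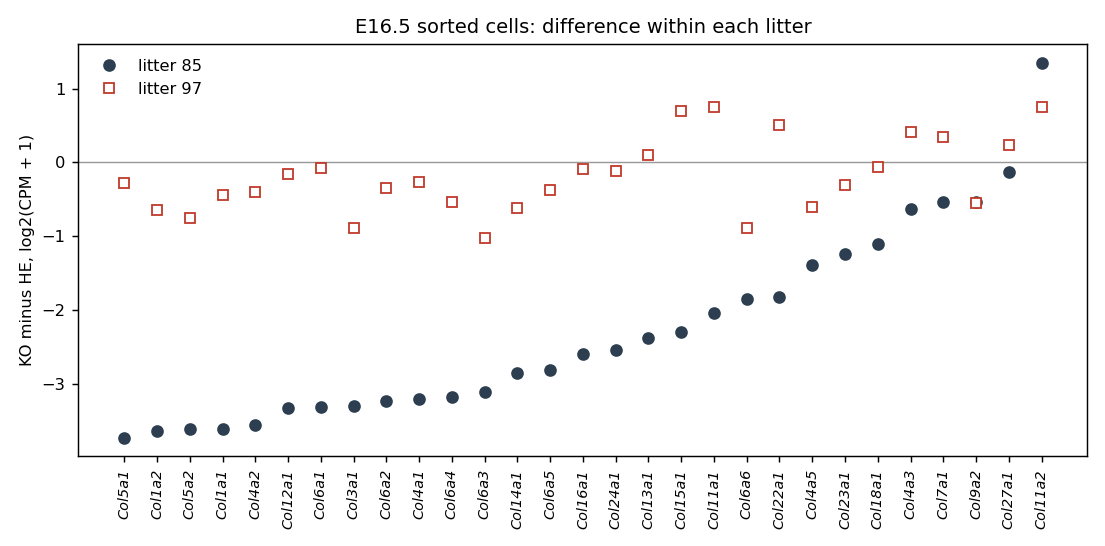
Log2(CPM + 1) of the KO pool minus that of the HE pool for each of the 29 collagen genes tested at E16.5, with filled circles for litter 85 and open squares for litter 97. In litter 85 28 of the 29 points lie under 0 and in litter 97 21, most of them nearer to 0.

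The 2 calls depended on the settings. Over all 17276 genes the main fit called 91, edgeR 310 and the fit with the litter as a block 830. With the litter as a block, where the fit keeps 1 residual degree of freedom, 15 members were called lower. With edgeR on reads recovered from the CPM steps 10 were, and without any 1 of the 4 pools, or with a pseudocount of 0.1, none. Markers of other cell types moved along with the collagens. The 22 mesenchymal markers, none of which codes for matrix, summed to 758.35 and 597.25 CPM in HE and to 115.6 and 334.95 CPM in KO, with 19 to 21 of the 22 above 0 and Twist1 at 0 in 3 of the 4 pools. Among them, Pdgfra was at 72.9 and 46.95 CPM in HE and at 11.5 and 35.35 CPM in KO. The 8 endothelial markers summed to 74.65 and 30.5 CPM in HE and to 9.7 and 32.3 CPM in KO, so that these groups overlapped. The 9 immune markers summed to 88.0 and 51.75 CPM in HE against 20.05 and 30.3 CPM in KO, and the 5 erythroid genes to 1176.5 and 1057.9 CPM against 308.35 and 490.85 CPM, both lower in KO without overlap. The 8 epithelial markers were at 3229.95 and 2936.95 CPM in HE and at 3653.15 and 3450.6 CPM in KO. The part of these cell types in the collagen difference was not tested. The litter 85 KO pool also had Xist at 1.55 CPM, against 638.6 to 1224.0 CPM in the other 3 pools, and Ddx3y, a Y-linked gene, at 81.6 CPM, and the part of sex was not tested either.

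Enzymes and chaperones of collagen synthesis were read from a list of 30 genes. None of the 23 tested was called at E16.5 in KO against HE (median log2 fold change -0.57), nor was any of 10 tested collagen receptors and receptor-linked genes (median -0.34).

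From E16.5 to E18.5 most collagens of HE cells fell. Of 30 members tested 28 changed, 24 lower and 4 higher, against 49.6% of all 18408 genes (19.4% lower, 30.3% higher), and the median log2 fold change was -2.57 against 0.23 over all genes. All 28 also lacked overlap between the groups, which 30.5% of all genes did on the lower and 45.8% on the higher side. The summed collagen level was 136.6 to 158.5 CPM at E18.5. The E16.5 HE pools are those of the genotype comparison above, and pools of embryos were here set against single embryos. The single embryos differed in Xist (11.3 and 5175.1 CPM), and the part of sex was not tested.

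The largest fall was that of Col14a1, which binds to the surface of fibrils, from 164.6 and 89.3 CPM to 2.35 and 2.45 CPM (log2 fold change -5.17, SE 0.31, limma adjusted p = 0.00022). Col3a1 fell to 20.55 and 22.15 CPM (-4.36, SE 0.31, limma adjusted p = 0.000368). Col1a1 fell to 19.4 and 23.7 CPM (-3.54, SE 0.44, limma adjusted p = 0.00174). For each of these genes both embryos lay under the lower of the pools. The other falls among the 12 largest were those of the fibrillar chains Col5a2 (-4.11), Col1a2 (-4.03) and Col5a1 (-3.93), which set fibril size or build type I fibrils, of the type VI chains Col6a4 (-4.85), Col6a3 (-4.41), Col6a2 (-4.12) and Col6a1 (-3.97), and of the type IV chains Col4a1 (-3.89) and Col4a2 (-3.53). Col27a1 fell by less, to 17.55 and 25.2 CPM (-0.61, SE 0.24, limma adjusted p = 0.0809), and at E18.5 it ranked with Col1a1 and Col3a1 per kilobase (1.64 against 3.28 and 2.18 CPM per kb).

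The 4 members that rose were low in all these libraries. All were under 1 CPM in both E16.5 pools and passed the filter of 1 CPM in 2 libraries through the E18.5 embryos. The filter favours upward calls of such members, and in the same way the fall of Col6a6. Col20a1, a fibril-associated chain, was at 0 in both E16.5 HE pools and at 4.2 and 2.45 CPM at E18.5. Its mean was at least 1.41-fold higher than the floor of 3 reads in the E16.5 pools (limma adjusted p = 0.00464). Col10a1, a network-forming chain of cartilage, went from 0.8 and 0 to 2.35 and 1.55 CPM, Col11a2 from 0 and 0.55 to 2.1 and 1.1 CPM, and Col17a1, a hemidesmosome chain of epithelia, from 0.8 and 0.55 to 2.55 and 1.55 CPM. By edgeR on the recovered reads 25 members were called, and Col10a1, Col11a2 and Col17a1 were not among them. Without either E18.5 embryo no member was called by limma. Of the members at 0 in both E18.5 embryos, Col6a6 had been at least 7.26-fold, Col22a1 at least 3.25-fold and Col26a1 at least 1.34-fold above the floor of 3 reads.

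Of 23 genes for making collagen 15 fell and 2 rose, beside the 19.4% and 30.3% of all genes that did. The falls were led by Lox, the enzyme that cross-links fibrils (-3.90, limma adjusted p = 0.00127), and by Serpinh1, the chaperone Hsp47 (-2.76, limma adjusted p = 0.000556), while Ppib (1.15) and Colgalt1 (0.80) rose. Of 10 receptor genes 6 fell and 3 rose, the latter at the share of all genes. Those that fell held Ddr2 (-2.73) and Itga11 (-1.67), which bind fibrils on mesenchymal cells, and those that rose were Ddr1 (1.31), Itga2 (1.01) and Cd44 (0.79). The mesenchymal sum went from 597.25 and 758.35 CPM to between 51.7 and 82.3 CPM, and the 5 erythroid genes from 1057.9 and 1176.5 CPM to between 26.4 and 54.7 CPM. The endothelial markers went from 74.65 and 30.5 CPM to 5.45 and 9.6 CPM, and the immune markers from 88.0 and 51.75 CPM to 28.55 and 20.55 CPM. None of these sums overlapped between the stages. Their part in the fall of the collagens was not tested.

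**Figure D2:**
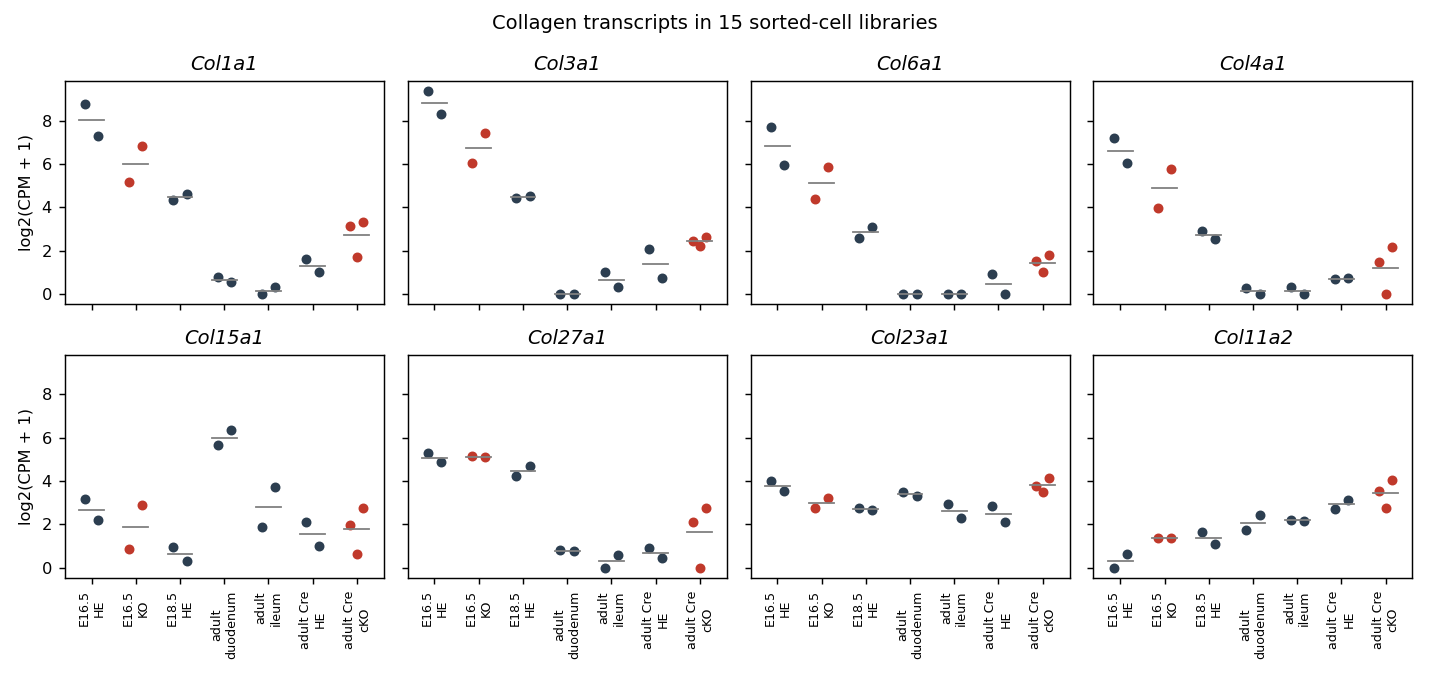
Log2(CPM + 1) of 8 collagen genes in each of the 15 sorted-cell libraries, by stage, region and genotype, with HE points dark, KO and cKO points red and a bar at the group mean. Col1a1, Col3a1, Col6a1 and Col4a1 step down from E16.5 to E18.5 and to the adult, Col27a1 drops mainly after E18.5, and Col15a1 is highest in the adult duodenum.

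Between E18.5 and the adult the type I and III chains dropped to 1.0 CPM or less, while Col15a1 rose. Of 27 members tested 16 changed, 14 lower and 2 higher, against 19.0% of all 19554 genes (9.65% lower, 9.36% higher), and the median was -1.22 against -0.04 over all genes. The groups did not overlap in 14 members that were lower and 3 that were higher in the adult, as in 24.4% and 18.9% of all genes. The adult group pooled the duodenum and ileum of 2 mice, so its 4 libraries are not independent. Xist was at 11.3 and 5175.1 CPM in the E18.5 embryos and at 6.65 to 10.75 CPM in the adult libraries. The part of sex was not tested.

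Col15a1, a basement membrane chain, was at 0.95 and 0.25 CPM in the embryos, at 49.25 and 81.05 CPM in adult duodenum and at 2.7 and 12.15 CPM in adult ileum. All 4 adult values lay above both embryos (log2 fold change 3.76, SE 1.12, limma adjusted p = 0.0598). Col16a1, a fibril-associated chain, rose from 0.5 and 0.9 CPM to between 2.15 and 3.4 CPM (1.12, SE 0.25, limma adjusted p = 0.0240). Neither rise was called when either E18.5 embryo was left out. Both genes were under 1 CPM in both embryos and passed the filter on low values only through the adults, which favours a rise. Falls of members at 0 in the adults, such as Col5a1, are favoured in the same way. Col27a1 was at 0.75 and 0.7 CPM in duodenum and at 0 and 0.5 CPM in ileum, after 17.55 and 25.2 CPM at E18.5 (-3.92, SE 0.31, limma adjusted p = 0.000351). The larger of its falls thus came after E18.5, and that of Col14a1 before.

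The other falls were led by Col3a1 (-4.15), Col1a1 (-4.07) and Col1a2 (-3.51). Col3a1 was at 0, 1.0, 0 and 0.25 CPM in the 4 adult libraries, and Col1a1 at 0.75, 0, 0.45 and 0.25 CPM (duodenum and ileum of the first mouse, then of the second). Col5a1, Col6a1 and Col6a3 were at 0 in all 4, and the E18.5 means were at least 5.62-fold, 8.77-fold and 6.34-fold higher than the floor of 3 reads. The calls also held Col4a1 (-2.58), Col6a2 (-2.34), Col6a4 (-2.13), Col4a2 (-1.92), Col6a5 (-1.91), Col12a1 (-1.83) and Col14a1 (-1.22). Col11a2 was at 2.1 and 1.1 CPM in the embryos and between 2.35 and 4.3 CPM in the adults, and did not pass the test (0.78, limma adjusted p = 0.112). Col23a1, a transmembrane collagen, was at 5.8 and 5.3 CPM in the embryos and between 3.9 and 10.2 CPM in the adults, with overlap.

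Among synthesis genes 5 of 17 tested fell and 1 rose, where 9.65% and 9.36% of all genes did. Plod2, a lysyl hydroxylase whose product marks the cross-links of fibrillar collagen, was at 71.3 and 69.65 CPM at E18.5 and at 0.55, 0, 0.7 and 0 CPM in the adult libraries (-5.81, limma adjusted p = 4.46e-05). Serpinh1 fell as well (-3.33, limma adjusted p = 0.00154), and Mia3, which helps load collagen for export, rose (0.69, limma adjusted p = 0.0504). Of 9 receptor genes Itga1, the α1 chain of a collagen-binding integrin (3.25), and Cd44 (2.33) rose and Ddr2 fell (-1.03). The mesenchymal markers summed to 9.9 to 18.55 CPM in the adults against 51.7 to 82.3 CPM. The immune markers summed to 1498.25 to 3150.55 CPM against 20.55 to 28.55 CPM, nearly all of it Lyz2. This myeloid lysozyme gene has uncertain counts because the Paneth cell gene Lyz1 is a close copy. Ptprc, the leukocyte antigen, went from 1.4 and 0.25 CPM to 56.9 and 71.4 CPM in duodenum and to 12.2 and 27.05 CPM in ileum. Cd68 overlapped between the stages, and Csf1r was lower in the adults (3.45 to 4.65 against 6.6 and 7.65 CPM). The part of these in the collagen values was not tested.

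**Figure D3:**
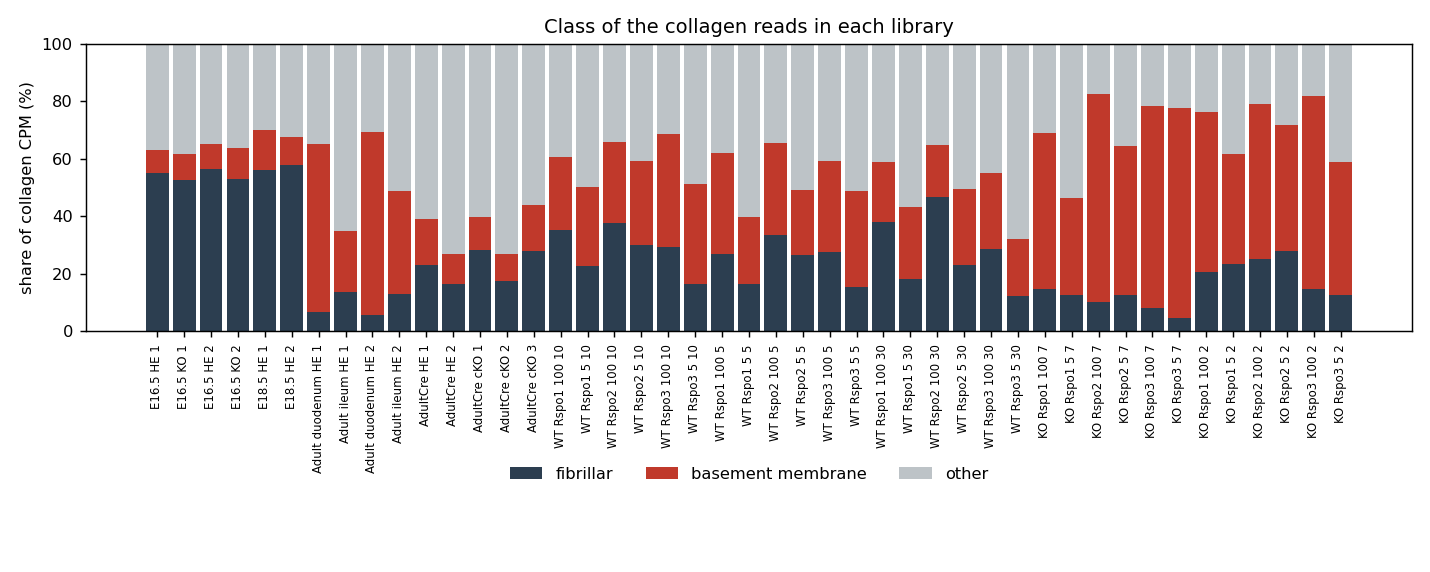
Percent of the summed collagen CPM of each of the 45 libraries held by fibrillar, basement membrane and other chains, as stacked bars. Fibrillar chains hold 52.7 to 57.9% in the embryonic sorted cells and 5.6 to 13.6% in adult duodenum and ileum, and basement membrane chains hold 58.6 to 63.9% in adult duodenum.

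Within the adult, ileum and duodenum of the same 2 mice were compared to ask which genes differ along the gut. Of 13 members tested 3 were lower in ileum and none higher, against 6.88% of all 18608 genes (4.64% lower, 2.24% higher). Col15a1 was 49.25 and 81.05 CPM in duodenum and 2.7 and 12.15 CPM in ileum (-3.20, SE 0.55, limma adjusted p = 0.0235). Col9a3, a fibril-associated chain of type IX, was 3.6 and 9.45 CPM in duodenum and 0.5 and 0.7 CPM in ileum (-2.12, SE 0.43, limma adjusted p = 0.0408). Col4a3, a chain of the type IV network known from kidney, was 2.5 CPM in both duodenum libraries and 0.5 CPM in both ileum libraries (-1.22, SE 0.30, limma adjusted p = 0.0773). Each was lower in the ileum of both mice and the groups did not overlap.

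In all, ileum was lower without overlap in 6 members and higher in 1, Col4a4 (0.75 and 0.9 CPM in duodenum, 2.45 and 1.85 CPM in ileum), where 22.1% and 23.6% of all genes were. Within the first mouse 9 of 13 members were lower in ileum and within the second 11 of 13, against 46.36% and 47.17% of all genes. With the mouse as a block Col5a2 joined the calls (-1.03, limma adjusted p = 0.0942), with 2.5 and 2.05 CPM in duodenum and 0.5 and 0.7 CPM in ileum. Without either duodenum library no call was left, and without either ileum library 1 was. Ptprc, the leukocyte antigen, was at 56.9 and 71.4 CPM in duodenum and at 12.2 and 27.05 CPM in ileum. Other immune markers did not follow it. Cd68 was at 6.25 and 6.75 CPM against 6.1 and 5.75 CPM, Csf1r at 4.3 and 4.3 CPM against 4.65 and 3.45 CPM, and Lyz2 overlapped. The 8 endothelial markers summed to 15.7 to 22.1 CPM against 4.95 to 6.55 CPM, with Cdh5, Kdr, Emcn and Cldn5 at 0.7 CPM or less in every library. The part of these cell types in the difference was not tested. No synthesis gene of 13 and no receptor gene of 8 tested was called.

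In the adult Cre mice none of 37 members was called between cKO and HE ileum, against 0.0504% of all 19848 genes. At an unadjusted p under 0.05 there were 7 members and 902 genes, and edgeR was not run on these libraries. Col23a1, the member of highest level per kilobase in cKO, was at 6.1 and 3.25 CPM in HE and at 12.6, 10.35 and 16.45 CPM in cKO (1.34, SE 0.32, limma adjusted p = 0.864). Col1a1 was at 2.1 and 1.0 CPM in HE and at 7.9, 2.3 and 8.95 CPM in cKO (1.41, SE 0.52, limma adjusted p = 0.864). In 9 members cKO lay above HE without overlap, where 15.3% of all genes did, and 36 of 37 log2 fold changes were positive, with a median of 0.73 against 0.09 over all genes. Scaling by TMM factors lowered the median of all genes by 0.13. The mesenchymal markers summed to 27.05 and 23.2 CPM in HE and to 52.8, 24.2 and 67.05 CPM in cKO, in the order of Col1a1 over the cKO libraries, with 9 to 21 of the 22 above 0. Their part in the difference was not tested.

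These libraries differed in other ways. The HE 1, cKO 1 and cKO 3 libraries detected 32121, 35792 and 42154 genes and had all 44 collagens above 0, while the HE 2 and cKO 2 libraries detected 22675 and 24944 genes. Their genotypes also conflict between sources. A supplementary table of the study, whose values equal these for 859 of 859 genes, gives the other genotype to 2 of the 5. HE 1 is cKO there, and cKO 2 is HE. The cKO group is then HE 1, cKO 1 and cKO 3, the libraries with more genes detected and all 44 collagens above 0. Genotype from that source and detection thus cannot be told apart. With the genotypes of that source, 3 members were called, 2 higher and 1 lower. No share of all genes can be set beside them, so this count is not read as a result about the collagens. The lower one was Col16a1 (-1.23, limma adjusted p = 0.0699), which has a positive change under the deposited labels (0.36, limma adjusted p = 0.897). Xist was at 1.7 and 0.65 CPM in the mice labelled HE and between 1161.55 and 1551.2 CPM in those labelled cKO, so sex and labelled genotype cannot be told apart.

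Across the 15 sorted libraries the members most like Col1a1 were Col1a2 and Col6a1 (Pearson r 0.99 each on the log2 scale), then Col6a3 and Col3a1 (0.98 each). The least like it were Col10a1 (-0.75), Col20a1 (-0.69) and Col11a2 (-0.66). These values describe 15 points that share stages, litters and mice.

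In organoids the collagen sum was 22.95 to 103.25 CPM in WT and 25.55 to 210.9 CPM in KO libraries, and the classes were weighted differently. In the 18 WT libraries fibrillar chains made a median of 27.4% and basement membrane chains 27.0% of it, and in the 12 KO libraries 13.7% and 54.1%. Per kilobase the leading member was Col11a2 in WT organoids with Rspo1 at 100 ng/ml (2.73 CPM per kb) and Col4a2 in KO organoids with Rspo2 at 100 ng/ml (7.85 CPM per kb), followed there by Col4a1 (5.72). The chains Col1a1 and Col3a1, which led in the embryo, were among the 29 that never passed 0.7 CPM. Mesenchymal markers summed to 11.55 to 35.35 CPM and Pdgfra was at 0.35 CPM or below in every organoid library.

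Taking 1 mean per culture over the 6 conditions, none of 11 members was called between KO and WT, against 0.169% of all 17140 genes called at a false discovery rate of 0.05. At an unadjusted p under 0.05 there were 5 members and 1578 genes. Col4a1 had culture means of 4.78, 3.9 and 1.25 CPM in WT and of 29.12 and 18.68 CPM in KO (2.45, SE 0.37, limma adjusted p = 0.108). Col4a2, its partner in the trimer, had means of 4.87, 4.64 and 1.48 CPM in WT and of 34.88 and 18.68 CPM in KO (2.39, SE 0.37, limma adjusted p = 0.117). Col18a1, the source of the endostatin fragment, had means of 2.72, 2.08 and 2.34 CPM in WT and of 9.01 and 3.69 CPM in KO (0.97, SE 0.26, limma adjusted p = 0.299). For all 3 both KO cultures lay above the 3 WT cultures, and in each of the 6 conditions taken apart as well, where 7.56 to 26.2% of all genes did. Over the 11 members the means lay without overlap above WT in 4 and below in 3, where 13.7% and 11.9% of all genes did. Without WT culture 30 or KO culture 2, 1 member was called higher in KO.

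**Figure D4:**
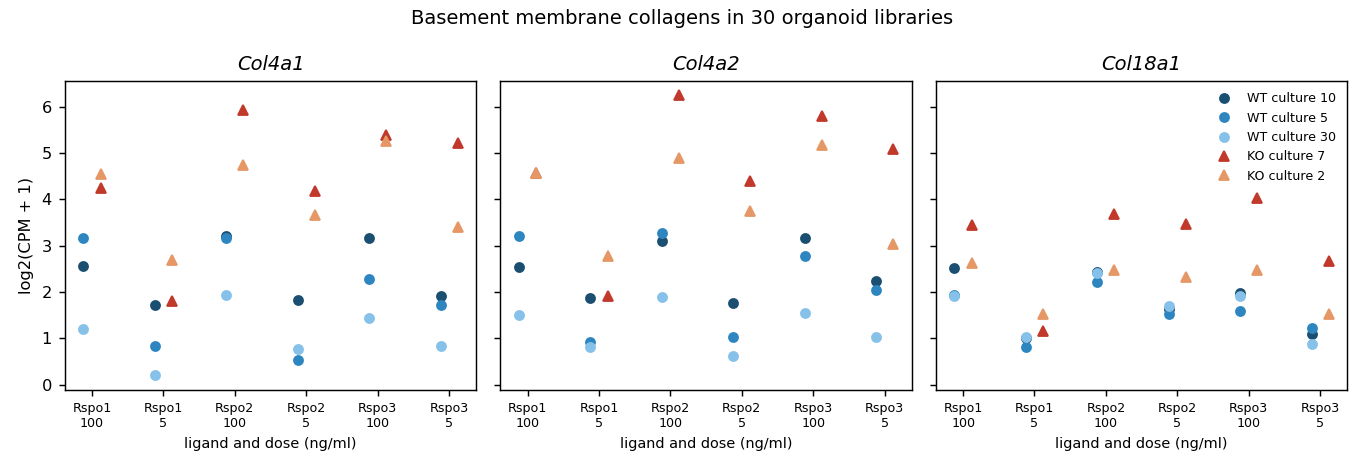
Log2(CPM + 1) of Col4a1, Col4a2 and Col18a1 in the 30 organoid libraries by Rspondin and dose, with circles for the 3 WT and triangles for the 2 KO cultures. In all 6 conditions both KO points lie above the 3 WT points for each gene.

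Tested condition by condition, 1 member passed. In Rspo2 at 5 ng/ml, Col4a2 was at 2.4, 1.05 and 0.55 CPM in WT and at 20.2 and 12.4 CPM in KO (2.93, SE 0.37, limma adjusted p = 0.0446), where 0.419% of all 16937 genes were called. In the other conditions the shares of genes called were 0.0337% and 0.0788% with Rspo1 at 100 and 5 ng/ml, 0.129% with Rspo2 at 100 ng/ml, and 0.0697% and 0.105% with Rspo3 at 100 and 5 ng/ml. The share of genes with both KO libraries above the WT libraries was 7.56% and 13.8% with Rspo1, 11.1% and 26.2% with Rspo2 and 17.2% and 13.6% with Rspo3, at 100 and 5 ng/ml. This call was lost with TMM factors, which lowered the median of all genes by 0.11 (2.85, limma adjusted p = 0.0569), and without any 1 of the 5 cultures, although without KO culture 2 there were 4 calls in all. Fitted together with the other 11 groups, where libraries of a culture count as independent, 9 such calls were made, all higher. The share of all genes called by that fit is not given, so the 9 are not read as a result about the collagens. The opposite order was seen for Col4a3, Col4a4 and Col10a1, with both KO libraries under the 3 WT libraries in 4 of the 6 conditions each, an order found in 11.7% and 7.50% of all genes with Rspo1, 14.4% and 13.6% with Rspo2 and 12.7% and 9.61% with Rspo3. All 3 WT cultures had Xist at 1029.7 CPM or more, and both KO cultures had Ddx3y at 55.0 CPM or more, against 0.45 CPM or less in WT. Xist was at 39.05 CPM or less in the KO libraries, except at 213.2 CPM in culture 2 with Rspo1 at 100 ng/ml. The source of that value was not tested. Sex and genotype cannot be told apart in these cultures.

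The type IV genes lie in head-to-head pairs. The starts of Col4a1 and Col4a2 are 21 bases apart on chromosome 8, those of Col4a3 and Col4a4 72 bases apart on chromosome 1, and those of Col4a5 and Col4a6 1309 bases apart on chromosome X. Over the 18 WT libraries Col4a1 and Col4a2 had a Pearson r of 0.97 and over the 12 KO libraries of 0.99, with a median ratio of 0.89 in CPM. Col4a3 and Col4a4 had 0.32 and 0.02, and Col4a5 and Col4a6 0.16 and 0.27. These describe libraries that share cultures, and the last pair was near the floor of detection. The 22 bases printed above are the stretch between the first of these pairs of starts.

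The dose of Rspondin was compared within each ligand and genotype. The 100 ng/ml libraries had 31 collagen calls above 5 ng/ml and none below, over 15 members tested in each of 6 comparisons. The filter on low values asked for 1 CPM in any 2 of the 30 organoid libraries. Col9a3 and Col16a1 had means of 0.7 CPM or less at 5 ng/ml in every group and passed through 100 ng/ml libraries. Col4a5, with means of 0.825 CPM or less at 5 ng/ml, needed 100 ng/ml libraries to pass as well. The filter thus favours their upward calls, such as that of Col16a1 in WT with Rspo1 (mean 0.45 against 0.17 CPM). In WT the collagen calls numbered 9 with Rspo1, 8 with Rspo2 and 3 with Rspo3, where 40.9%, 24.3% and 37.8% of all 19130 genes were called higher. In KO they numbered 5, 0 and 6, where 21.9%, 0.115% and 32.7% were. Set against these shares, 9 and 8 of 15 exceed the background and 3 of 15 is under it. The 9 and the 8 hold calls of members favoured by the filter, Col9a3 and Col16a1 in both and Col4a5 in the 8. The members' medians were 0.66, 0.73 and 0.20 in WT and 0.65, 0.43 and 0.52 in KO, against 0.28, 0.17, 0.24, 0.19, 0.03 and 0.24 over all genes. Scaling by TMM factors lowered the medians of all genes by 0.08 to 0.32 and left 21 calls, all higher. With the culture as a block, since each culture had every condition, there were 49 calls, all higher. In WT these were 12, 14 and 5 of 15 members with Rspo1, Rspo2 and Rspo3. The block there called 12265, 9092 and 11819 of 19130 genes in either direction. In KO they were 10, 0 and 8, where 8387, 224 and 10534 genes were called. In the unblocked fit without the WT culture 5 there were 17 calls.

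Col27a1 was called in 5 of the 6 comparisons, more than any other member. In WT it was at 10.95, 7.65 and 18.65 CPM with Rspo2 at 100 ng/ml and at 1.25, 0.5 and 0.7 CPM at 5 ng/ml (2.82, SE 0.26, limma adjusted p = 2.26e-07). With Rspo1 it was at 5.25, 5.35 and 5.95 CPM against 0.55, 0.55 and 0.5 CPM (2.09, SE 0.26, limma adjusted p = 1.28e-06), and with Rspo3 at 1.8, 1.8 and 2.5 CPM against 0.55, 0.5 and 0.65 CPM (0.95, SE 0.26, limma adjusted p = 0.00367). In WT the doses never overlapped, and the low dose lay near 0.5 to 1.25 CPM with every ligand. In KO it was called with Rspo1 (1.67, limma adjusted p = 0.00059) and Rspo3 (1.14, limma adjusted p = 0.00509). With TMM factors its 5 changes ranged from 0.84 to 2.62 and all stayed called.

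Col11a2, the fibrillar chain with the highest level in organoids, was called in 4 comparisons. In WT with Rspo1 it was at 28.8, 14.4 and 13.2 CPM at 100 ng/ml and at 8.55, 3.15 and 3.55 CPM at 5 ng/ml (1.73, SE 0.36, limma adjusted p = 0.000455). It also rose with Rspo2 (1.34) and Rspo3 (1.57) in WT and with Rspo3 in KO (1.37), and with TMM factors by 1.42, 1.12, 1.37 and 1.13. Col4a1 rose in 3 comparisons, by 1.39 and 1.73 in WT with Rspo1 and Rspo2 and by 2.14 in KO with Rspo1, of which the first was lost with TMM factors (1.18, limma adjusted p = 0.0839). Col4a4, Col9a3, Col10a1 and Col18a1 were called in 3 comparisons each, Col4a2, Col4a5 and Col16a1 in 2, and Col17a1 in 1. In all 15 pairs of libraries of the same culture and ligand, 100 ng/ml was above 5 ng/ml for Col4a1, Col4a2, Col4a4, Col11a2, Col17a1, Col18a1 and Col27a1, as for 13.2% of all genes.

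**Figure D5:**
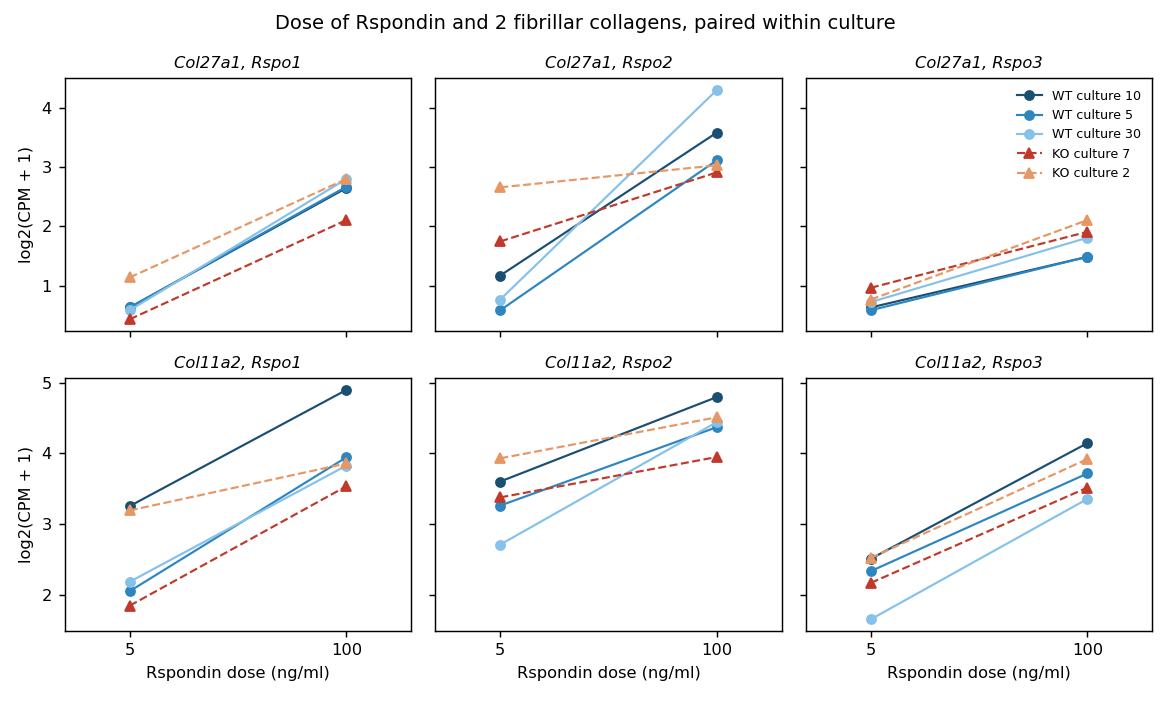
Log2(CPM + 1) of Col27a1 and Col11a2 at 5 and 100 ng/ml of each Rspondin, with a line joining the 2 doses of a culture (circles WT, triangles KO). Every line rises for both genes, and for Col27a1 the WT lines with Rspo2 are the steepest.

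With Rspo2 the dose effect on Col27a1 differed between genotypes. In KO it was at 6.5 and 7.15 CPM at 100 ng/ml and at 2.35 and 5.3 CPM at 5 ng/ml (0.77, limma adjusted p = 0.611). Its dose effect was smaller than in WT by 2.06 on the log2 scale (SE 0.40, limma adjusted p = 0.0229), the 1 member of 15 called for this difference, where 0.439% of all genes were called, 0.413% in this direction. For Rspo1 and Rspo3 no member and no gene was called, with 0 and 2 members at an unadjusted p under 0.05. The Rspo2 call was lost without WT culture 10 (adjusted p = 0.232), WT culture 30 (0.372) or KO culture 2 (0.401), by the same limma fit. Without KO culture 2, whose library labelled 5 ng/ml of Rspo2 went against that label, the difference was -1.66. In KO with Rspo2 no member was called for dose, with 5 members and 1327 genes at an unadjusted p under 0.05. Without KO culture 2 none was called either, and Col27a1 had 1.16 (limma adjusted p = 0.285, with KO culture 7 assumed to vary like the others).

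Ligands at matched dose gave 11 calls over 12 comparisons, of which 5 comparisons held any. In WT at 100 ng/ml, Rspo3 against Rspo2 had Col27a1 lower (-2.07, SE 0.26, limma adjusted p = 3.09e-05), with 1.8, 1.8 and 2.5 CPM against 10.95, 7.65 and 18.65 CPM. Col9a3 (-1.05) and Col16a1 (-0.70) were lower as well, where 9.04% of all genes were. Col16a1 was under 1 CPM on average with both (0.2 against 0.97 CPM). In WT at 5 ng/ml, Col11a2 (-1.03) and Col4a4 (-0.63) were lower with Rspo3 than with Rspo2, where 32.2% of all genes were.

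In KO at 5 ng/ml, Col27a1 was at 2.35 and 5.3 CPM with Rspo2, at 0.35 and 1.2 CPM with Rspo1 and at 0.95 and 0.7 CPM with Rspo3. It was higher with Rspo2 than with Rspo1 (1.42, limma adjusted p = 0.00439), together with Col18a1 (1.54) and Col4a5 (0.79), where 13.6% of all genes were higher. Col4a5 was under 1 CPM on average with both (0.825 against 0.05 CPM). It was lower with Rspo3 than with Rspo2 (-1.34, limma adjusted p = 0.00131), together with Col11a2 (-1.31), where 33.6% of all genes were lower. Each of these KO calls was lost without one of the KO cultures. Without culture 7 the differences of Rspo2 from Rspo1 were 1.52 for Col27a1, 0.79 for Col18a1 and 0.61 for Col4a5. These 3 values rest on the doubtful Rspo2 library of culture 2 alone. In culture 7, Col27a1 was at 2.35 CPM with Rspo2 and at 0.35 CPM with Rspo1. The differences of Col18a1 and Col4a5 without culture 2 are not given here. Without culture 2, whose Rspo2 library is in doubt, the difference of Rspo3 from Rspo2 was -0.78 for Col27a1 and -1.21 for Col11a2 (limma adjusted p = 0.147 and 0.153). Col4a1 was higher with Rspo3 than with Rspo1 (2.06, SE 0.69, limma adjusted p = 0.0435), at 36.15 and 9.6 CPM against 2.5 and 5.45 CPM, where 3.13% of all genes were higher. This difference rested on KO culture 7, without which Col4a1 had 0.72 (limma adjusted p = 0.773), and the call was also lost without WT culture 5, with no filter and with a pseudocount of 0.1 (limma adjusted p = 0.076, 0.0967 and 0.111). With TMM factors, which moved the medians of all genes by -0.17 to 0.27, 9 of the 11 calls were made, without Col4a4 in WT at 5 ng/ml and Col16a1, which then missed the filter on low values. With the culture as a block the ligand calls numbered 33, 15 higher and 18 lower, without WT culture 5 they numbered 7 and without KO culture 2 they numbered 19. The block called the most members, 9 of 15, for Rspo2 against Rspo1 in KO at 5 ng/ml, where it called 6103 of 19130 genes. The comparisons of a dose and genotype share libraries, so their calls are not independent.

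Collagen receptors and synthesis genes were read beside the share of all genes called. Of 8 receptor genes, 5, 5 and 6 were higher at 100 ng/ml in WT with Rspo1, Rspo2 and Rspo3, where 40.9%, 24.3% and 37.8% of all genes were, and 0, 0 and 1 lower. In KO 4, 0 and 5 were higher and none lower, where 21.9%, 0.115% and 32.7% of all genes were higher. In WT, Cd44 rose by 2.75, 2.12 and 2.37 and Itga1 by 1.95, 0.77 and 1.63, on the log2 scale. Of 17 synthesis genes 8, 2 and 6 were higher in WT and 4, 3 and 5 lower. The higher calls were thus near or under the share of all genes. The lower calls were above it, since 12.5%, 9.12% and 13.7% of all genes were lower. In KO 6, 0 and 7 were higher and 2, 0 and 4 lower, where 7.86%, 0% and 11.8% of all genes were lower.

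In organoids the members most like Col27a1 over the 18 WT libraries were Col16a1 (Pearson r 0.92) and Col9a3 (0.90), and over the 12 KO libraries Col11a2 (0.94). These libraries share cultures, doses and ligands.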

How the data were processed

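RNA of sorted intestinal cells (15 libraries, Ovation SoLo kit) and organoids (30 libraries, NEBNext kit with rRNA depletion) was sequenced as paired ends. Per the labels and the study's methods, the authors trimmed reads with Trimmomatic 0.36, mapped them to GRCm38 (mm10) with STAR 2.5.3a and counted them on Ensembl 90 genes with HTSeq 0.9.1. They deposited CPM in 2 tables, with each value rounded upward to a multiple of 0.05. The spacing of low values gave the reads behind each library, and in the sorted cells 89.7 to 99.92% of the low values were whole reads (whole reads recovered). Counts so recovered were used only for edgeR 4.0.16, as an alternative. A floor is 3 reads of a library, and intervals and floors cover counting error only.

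Values were taken as log2(CPM + 1). Genes at 1 CPM or more in as many libraries as the smaller group holds were tested with limma 3.58.1 (trend) in R 4.3.3, with Benjamini-Hochberg adjustment over all genes, at a false discovery rate of 0.1 and a fold of 1.5 (sorted cells) or of 0.05 (organoids), and the tests were tested on simulated data. For dose and ligand this filter covered all 30 organoid libraries and asked for 2 of them. Positions came from GENCODE on GRCm38 and promoters from RefSeq. The members and lists were chosen with earlier results of these data known. The text names the members called, up to the 12 with the largest change, and those of highest level, and single further members where a class is described.

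Litters and cultures pair libraries by origin, and mice pair regions. Deviations of paired libraries correlated by -0.03 (E16.5 litters), 0.26 (adult mice) and 0.16 or more (organoid cultures). Alternatives were a pseudocount of 0.1, no filter, TMM factors, other limits, joint fits, the block and each sample left out. Tables were handled in Python 3.11.15 with pandas 2.3.3 and numpy 2.4.6 (statistics: scipy 1.17.1), and plots drawn with matplotlib 3.10.9.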

Additional observations from a re-analysis of the deposited data

Results flagged for a closer look

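In 4 of 24 collagens looked at over the 4 adult HE libraries, 1 library was above 0 and the other 3 were at 0, so the gap to the nearest library equals the whole range for any such gene and no chance rate applies. The library above 0 was at 0.25 CPM for Col1a2 (ileum of the second mouse), 0.5 CPM for Col6a2 (ileum of the first), 0.2 CPM for Col6a5 (duodenum of the first) and 0.75 CPM for Col12a1 (duodenum of the first). The Col1a2, Col6a2 and Col6a5 values are under the floor of 3 reads of a library.

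The dose effect of Rspo2 on Col27a1 differed between KO and WT organoids by -2.06 on the log2 scale in a test of the difference itself (limma adjusted p = 0.0229). The value was higher at 100 ng/ml in 3 of 3 WT and 2 of 2 KO cultures, and 1 KO library of this comparison went against its dose label.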

How the results depend on the processing

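For KO against HE at E16.5 (2 collagens called), 0 were called with a pseudocount of 0.1, with no filter and at a false discovery rate of 0.05 with no fold limit, and 0 to 0 without each pool. TMM factors gave 7, 1 fit of all 15 sorted libraries 6, edgeR 10 and the litter as replicate block 15. Over all genes edgeR called 310 and the block 830, against 91 in the main fit. E18.5 against E16.5 (28) ranged from 0 (either embryo left out) to 30 without each library, and adult against E18.5 (16) from 12 to 16. Ileum against duodenum (3) gave 0 with no filter and 0 to 1 without each library, and the mouse block gave 4. Adult Cre cKO against HE (0) gave 3 with the genotypes of the study's table. Organoid KO against WT (0) gave 1 in the 5 ng/ml conditions alone and 0 to 1 without each culture. By condition (1) it gave 0 with a pseudocount of 0.1, no filter or TMM factors, 9 in the 12-group fit and 0 to 4 without each culture. Dose calls (31) went from 17 to 33 and ligand calls (11) from 7 to 19 without each culture. The difference in dose effect (1) went from 0 to 1. With a left-out sample the lone sample of a group is assumed to vary like the others, and the cause of these moves was not tested. For most of these alternatives no share of all genes is given, so their counts show only how the calls moved.

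The block of paired cultures gave 49 dose and 33 ligand calls, with more calls over all genes too (WT Rspo1 dose, 12265 against 10224). Apart from these and the litter block at E16.5, block fits changed no count by over 1.5 times. No paired analysis was possible because culture is nested in genotype for organoid KO against WT. Signs turned for Col16a1 in adult Cre mice (-1.23 with the genotypes of the study's table, and -0.33, without HE 1, to 1.05 over the left-out libraries, with -0.07 without cKO 2), Col20a1 there (-0.19, without cKO 1, to 0.75), Col23a1 in adult against E18.5 (-0.10 with ileum alone) and Col11a2 in ileum against duodenum (-0.22, without the first duodenum library, to 0.44). None of these but the first Col16a1 value was called. Of 1209 values of named collagens, 966 kept direction and call, 224 lost the call, 13 gained it and 6 turned.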
